A study of Cannabis sativa with 6 samples.

Results

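On-off genes are described here: genes whose RNA was plainly present in some flower libraries of feral hemp (Cannabis sativa) and practically absent from others of the same sex, in both sexes. Members were chosen by their measured levels. A gene entered if at least 1 male and at least 1 female library held 3 CPM or more, and at least 1 male and at least 1 female library held 0.1 CPM or less. CPM is the depth-scaled count: a gene's count divided by the library's summed gene counts, times 1000000. The rule found 63 of the 29777 genes in the count tables. The 6 libraries were 3 male and 3 female flower samples, and each sex came once from each of 3 Nebraska locations, labelled Knox, Madison and Merick. The labels give no genotype, cultivar or treatment beyond a shorter day that induced flowering in all plants. The sources used here do not give the flower stage, the age at harvest, or whether a library holds 1 plant or several. The design compares messenger RNA of male and female flowers, and the series title places it in a study of genetic variation among feral hemp populations.

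Hemp is mostly dioecious and wind pollinated, so plants of 1 population are outcrossed and differ from each other at many loci. Individuals of a plant species can differ in which genes they carry, in which alleles are transcribed, and in the stage of the flowers collected. Counts of RNA do not show which of these applies to a gene, and none of them was tested. In whole flowers, fewer cells that transcribe a gene and less RNA per cell cannot be told apart. RefSeq's gene table for the Pink pepper assembly of hemp gave gene types and neighbours but no descriptions, and none of the 63 genes had a common name there. Roles of single on-off genes could therefore not be stated, and the flower label was not checked against marker genes.

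Gene counts summed to 40334171 to 46045338 in the male libraries and to 26945432 to 38672535 in the female libraries. At these depths 0.1 CPM corresponds to at most 4 counts in a male library, 3 in the Madison and Merick females and 2 in the Knox female, and 3 CPM to 81 counts or more. The Merick male stood apart from the other males: over 24265 genes with a count, its log2(CPM + 0.1) values correlated at 0.89 and 0.91 with the Knox and Madison males and at 0.89 with each female, against 0.96 between the Knox and Madison males. The Knox and Madison males correlated with the females at 0.79 to 0.81, lower than the Merick male did. Without the Merick male the rule found 23 genes, all among the 63, and without any other single library 32 to 39. Whether the Merick male's difference has a part in the on-off genes was not tested.

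The rule sets levels of 3 CPM and of 0.1 CPM, so the following counts describe the genes it selected. Of the 378 values (63 genes in 6 libraries), 167 were on, at 3 CPM or more, 163 were off, at 0.1 CPM or less, and 48 lay between, at 0.114 to 2.97 CPM (4 to 130 counts). On values held a median of 273 counts and ranged from 87 to 8996 counts. Off values ranged from 0 to 4 counts, and 107 of them (65.6%) were exactly 0, 30 were 1 count, 13 were 2, 10 were 3 and 3 were 4. A count of 0 allows up to 3 counts, a level of 0.0652 CPM in the deepest library (Merick male) and 0.111 CPM in the shallowest (Knox female). In 37 genes at least 1 male and at least 1 female library held no count at all. Levels were low to moderate when on. The highest of the 6 libraries had a median of 10.98 CPM over the 63 genes and ranged from 3.49 to 233 CPM, and 30 genes stayed under 10 CPM everywhere.

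**Figure D1:**
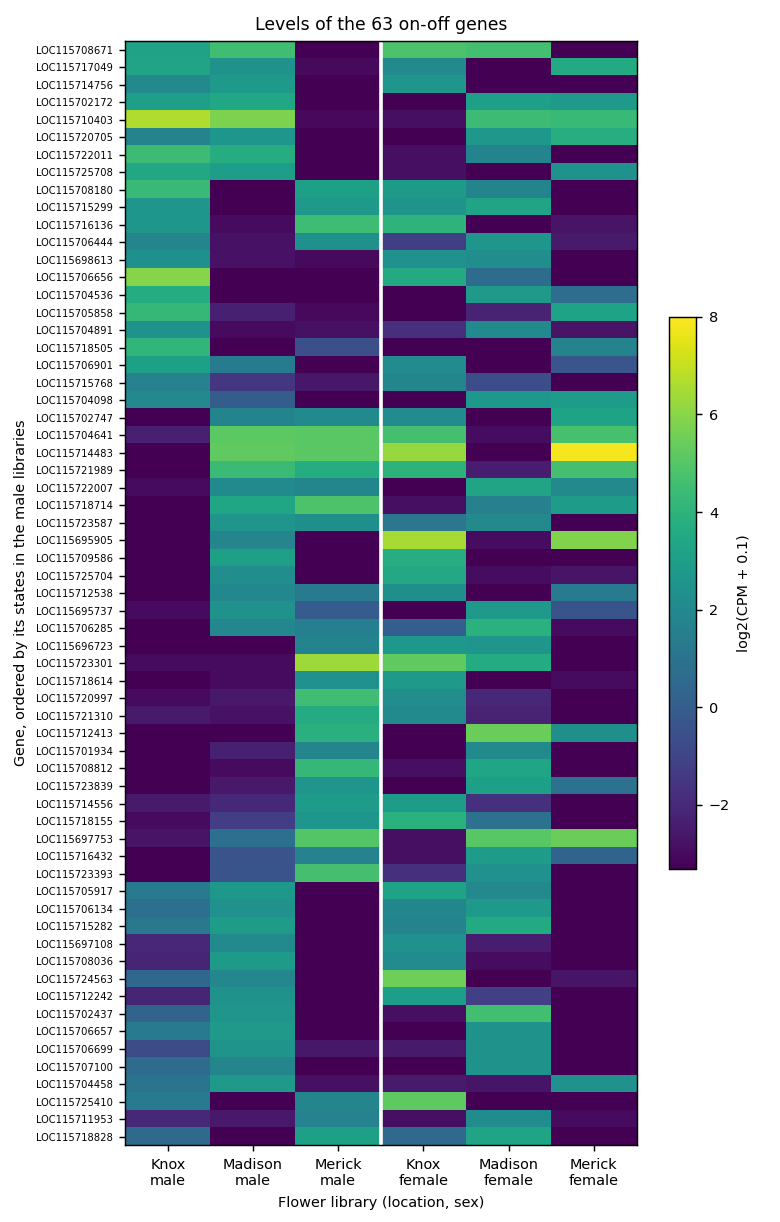
Levels of the 63 on-off genes, as log2(CPM + 0.1), with 1 row per gene and 1 column per library, males left of the white line and females right of it. Dark cells are libraries at or near 0 counts, and rows differ in which libraries are dark in each sex.

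Every library lacked some of the genes and expressed others. The Knox male lacked 27 of the 63 genes, the Madison male 22 and the Merick male 31. The Knox female lacked 24, the Madison female 20 and the Merick female 39. The Merick female lacked the most, with 31 of its 39 off genes at 0 counts. It was the only off library of its sex for 22 genes, the Merick male for 23. The only on library of a sex was the Madison male for 18 genes, the Merick male for 17 and the Knox male for 9, and the Knox or the Madison female for 18 each and the Merick female for 5. Summed over the 63 genes, levels were 360, 349 and 428 CPM in the Knox, Madison and Merick males and 538, 356 and 502 CPM in the females of the same order. A few genes weigh heavily in these sums, since LOC115714483 alone gave 233 of the 502 CPM in the Merick female.

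**Figure D2:**
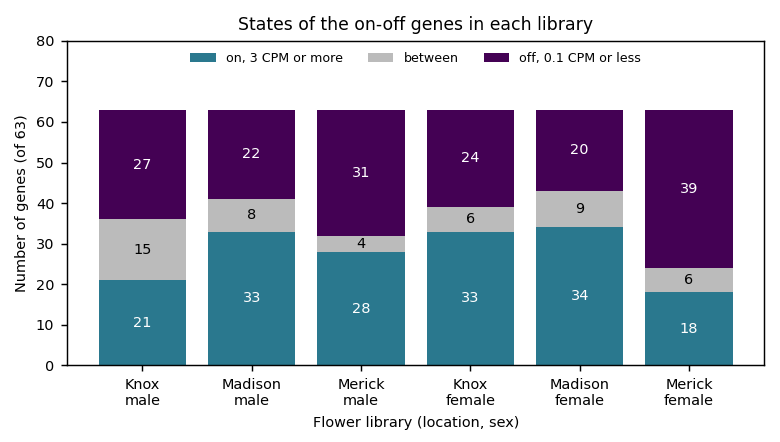
Number of the 63 genes that were on (3 CPM or more), between, or off (0.1 CPM or less) in each library, males left and females right. Off genes number 22 to 31 in males and 20 to 39 in females, most in the Merick library of each sex.

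The gene with the highest level shared by both sexes was LOC115723301, a protein-coding gene on chromosome 9 in the Pink pepper assembly. It had 1, 1 and 3749 counts in the Knox, Madison and Merick males, against 1012, 430 and 0 counts in the females of the same order. These are 0.0248, 0.0244 and 81.4 CPM in males and 37.6, 12.3 and 0 CPM in females. The gene was on in exactly those females whose location had an off male, and off in the Merick female while the Merick male held its highest level. Among females the Knox library was at least 484-fold above the Merick library, taking 3 counts as the floor of the Merick library. Among males the Merick library was 3341-fold above the Madison library (exact 95% interval 599 to 132005, counting error only). Both folds set the highest against the lowest library of a sex. The rule asks for 3 CPM against 0.1 CPM there, so large folds were fixed in advance and only describe the gene.

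The long non-coding RNA LOC115714483, on chromosome 4, held the highest level of all 63. A long non-coding RNA is a transcript with no annotated protein. It had 0, 37.1 and 34.4 CPM in the Knox, Madison and Merick males, against 75.2, 0 and 233 CPM in the females. The Knox male and the Madison female were each at 0 counts, and the other 4 libraries held 1521 counts or more. LOC115704641 and LOC115721989, both protein coding on chromosome 6, and LOC115702747, which the gene table does not hold, lacked the same pair of libraries. LOC115704641 had 0.0992, 35.1 and 34.7 CPM in males and 25.3, 0.0286 and 26.2 CPM in females. The 4 on libraries of this gene lay within 25.3 to 35.1 CPM, close together beside off libraries of 4 counts and 1 count. LOC115721989 had 0, 20.7 and 12.9 CPM in males and 15.8, 0.0857 and 25.3 CPM in females, and LOC115702747 0, 3.34 and 4.00 CPM in males and 4.27, 0 and 9.44 CPM in females.

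LOC115710403, a long non-coding RNA on chromosome 9, lacked the Merick male and the Knox female. It stood at 101, 54.3 and 0.0217 CPM in the Knox, Madison and Merick males, against 0.0371, 21.7 and 19.7 CPM in the females. Each off library held 1 count, and on libraries held 760 to 4091. LOC115702172 and LOC115720705, neither held by the gene table, lacked the same pair. The highest level of LOC115702172 was 10.9 CPM in the Madison male, and that of LOC115720705 was 13.1 CPM in the Merick female.

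LOC115697753, protein coding on chromosome 7, was at 0.0496, 1.68 and 30.9 CPM in the Knox, Madison and Merick males, against 0.0371, 33.4 and 44.2 CPM in females. Both Knox libraries were off, at 2 counts in the male and 1 in the female. LOC115712413 was at 0, 0 and 14.5 CPM in males and 0, 43.3 and 4.86 CPM in females, again with both Knox libraries off. LOC115716136, protein coding on chromosome 5, was at 6.25, 0.0244 and 22.0 CPM in males and 16.2, 0 and 0.0517 CPM in females. Both Madison libraries lacked it, and so did the Merick female but not the Merick male. LOC115706656, a long non-coding RNA on chromosome 5, was at 61.4, 0 and 0 CPM in males and 12.1, 1.51 and 0 CPM in females, highest in Knox in both sexes.

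**Figure D3:**
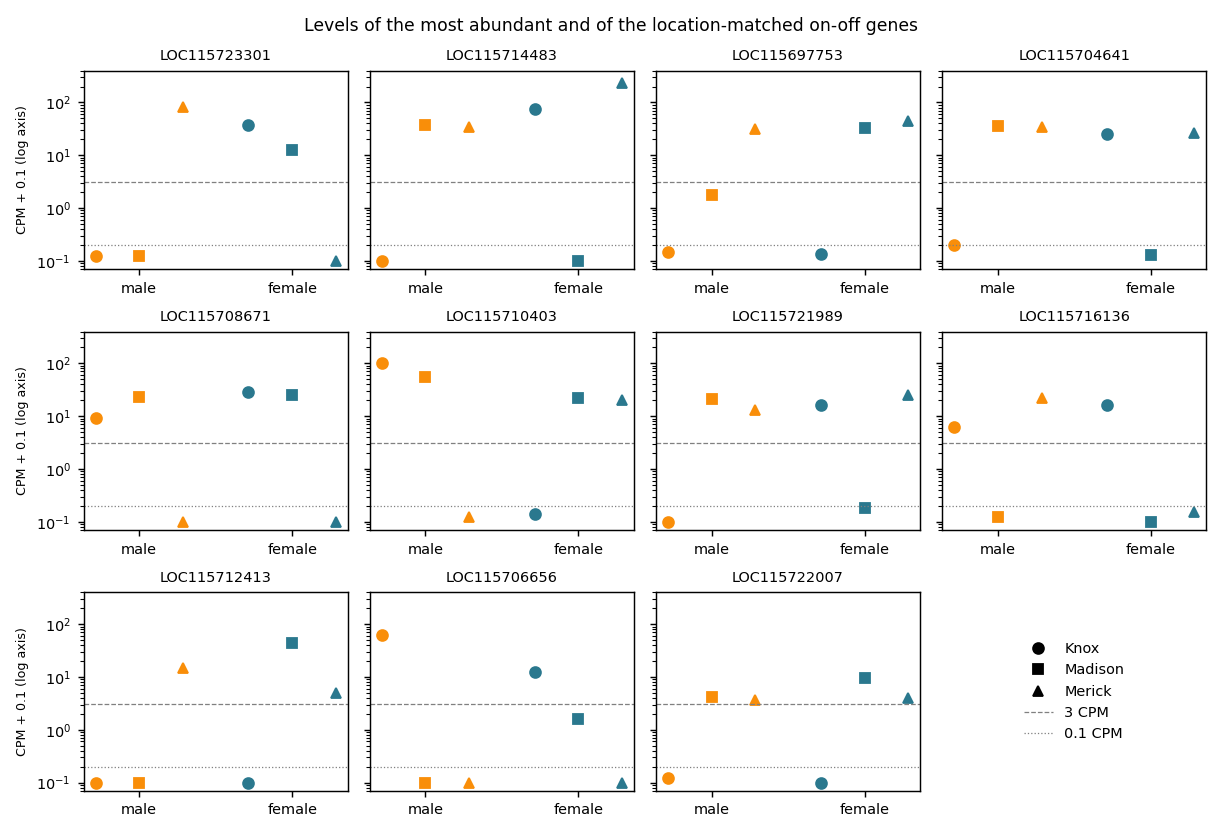
Levels of 11 on-off genes in each library as CPM + 0.1 on a log axis, males left (orange) and females right (blue), with the location given by the symbol. They are the 10 with the highest level reached in both sexes and LOC115722007; dashed and dotted lines mark 3 and 0.1 CPM, and in LOC115708671 and LOC115722007 male and female symbols of 1 location lie on the same side of both lines.

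Male and female of 1 location mostly did not agree across the 3 locations. Only 2 of the 63 genes had the same state at all 3, among the 26 genes with all 6 libraries on or off, and 5 had it when all libraries were thinned to equal depth. Under the 5 other matches of the males with the females, 4 to 10 genes had the same state in all 3 pairs. LOC115708671, protein coding on chromosome 3, was on in both Knox and both Madison libraries and at 0 counts in both Merick libraries. It had 9.05, 22.7 and 0 CPM in the Knox, Madison and Merick males and 28.7, 24.8 and 0 CPM in females, with 365 to 931 counts in its on libraries. LOC115722007, protein coding on chromosome 9, lacked both Knox libraries, with 0.0248, 4.07 and 3.56 CPM in males and 0, 9.54 and 3.88 CPM in females. Its listed span overlaps that of another counted gene in the Pink pepper assembly, and without a known strand setting its counts are uncertain to that extent.

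A further 12 genes had the same state at 2 locations and a library between the thresholds at the remaining one. Among them LOC115715282, a long non-coding RNA on chromosome 3, was at 2.23, 7.41 and 0 CPM in males and 3.23, 12.02 and 0 CPM in females. LOC115706134, not held by the gene table, was at 1.66, 5.17 and 0 CPM in males and 3.56, 6.97 and 0 CPM in females. LOC115705917, a long non-coding RNA on chromosome 9, was at 2.43, 6.51 and 0 CPM in males and 9.50, 3.94 and 0 CPM in females. All 3 genes were at 0 counts in both Merick libraries and at 1.66 CPM or more in the other 4. LOC115718714, a long non-coding RNA on chromosome 1, lacked the Knox libraries instead, with 0, 9.84 and 28.1 CPM in males and 0.0371, 2.97 and 7.32 CPM in females.

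Opposite states at every scored location, with at least 2 scored, were found in 16 genes, long non-coding RNAs among them. In 4 of the 16 genes the state was opposite at all 3 locations, and these 4 were all protein coding. Besides LOC115723301, these were LOC115695905, LOC115696723 and LOC115725708. LOC115695905, on chromosome 6, was at 0, 3.48 and 0 CPM in the Knox, Madison and Merick males, against 92.8, 0.0286 and 57.7 CPM in females. It was on in the 1 male whose female counterpart was off. LOC115696723, on chromosome 7, was at 0, 0 and 3.30 CPM in males and 6.38, 5.85 and 0 CPM in females. LOC115725708, on chromosome 6, was at 10.98, 7.72 and 0 CPM in males and 0.0371, 0 and 5.40 CPM in females. These and the location-matched genes outside the naming rule were picked after their values had been seen.

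Counted over genes and locations, the male and the female had the same state in 67 of 147 scored comparisons (45.6%) and opposite states in 80. In 42 comparisons at least 1 library lay between the thresholds. Knox libraries had the same state in 19 of 43 comparisons (44.2%), Madison libraries in 20 of 49 (40.8%) and Merick libraries in 28 of 55 (50.9%). Because each sex must hold both states, the share can be read only against other matches of male with female libraries. The 6 possible matches gave 45.6% to 54.5% with a mean of 50.9%, and the match by location gave the lowest. The exact one-sided permutation test for more agreement by location gave p = 1.0, but 6 matches allow no p below 0.167, so the test could not have passed a threshold of 0.05 and nothing is concluded from it. Among single pairs at these thresholds, the Madison male and the Merick female shared the most states, 30 of 51 (58.8%). Each pair from different locations shared more (51.9% or above) than any pair from 1 location (50.9% or below). The direction against the mean of the matches turned when off meant 0 counts (51.3% against 51.1%) or up to 0.3 CPM (52.7% against 51.5%). With TMM-scaled sizes the match by location was again the lowest. It was not the lowest under either of these off limits, with on at 1 or 10 CPM, or at equal depth. The low rank of the match by location therefore depends on the thresholds and the depth.

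**Figure D4:**
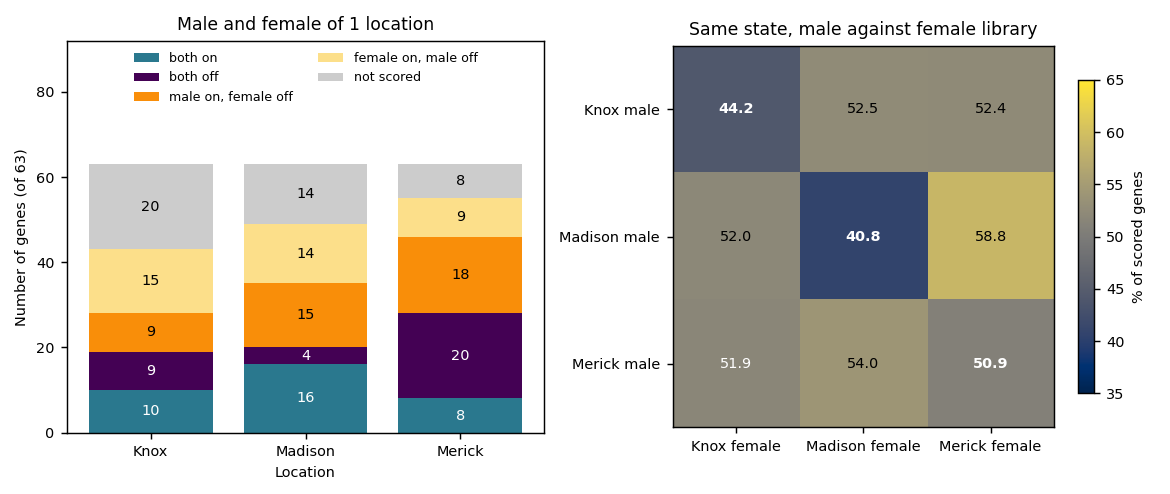
Left, number of the 63 genes by the states of the male and the female of each location. Right, percentage of scored genes with the same state for each male library (rows) against each female library (columns), at 3 and 0.1 CPM only. The bold diagonal holds pairs of 1 location, 40.8% to 50.9%, and the other cells range from 51.9% to 58.8%.

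Numbers of genes off or on in both libraries of a location are limited by each library's own totals. Both libraries were off for 20 genes in Merick, 9 in Knox and 4 in Madison, and both were on for 8, 10 and 16 genes in the same order. Of the 20 genes missing from both Merick libraries, 14 had 0 counts in both, and all 20 together held 15 counts there. They comprised 6 long non-coding RNAs, 5 protein-coding genes and 9 genes that the table does not hold. LOC115709586 was 1 of them, at 0, 8.68 and 0 CPM in males and 13.3, 0 and 0 CPM in females. The Merick libraries also had the most off genes of each sex, 31 in the male and 39 in the female. Knox libraries had 27 and 24, and Madison libraries 22 and 20. On genes numbered 28 and 18 in Merick, 21 and 33 in Knox and 33 and 34 in Madison. Numbers shared by both libraries cannot exceed these totals, so they are not read as a difference in agreement between locations. The part of the totals was not tested. Over all 3 locations the male was on with the female off in 42 comparisons, and the reverse held in 38. These numbers were 9 and 15 for the Knox libraries, 15 and 14 for Madison and 18 and 9 for Merick.

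Some patterns were shared by several genes. The 63 genes fell into 45 combinations of states over the 6 libraries, of which 34 held 1 gene and none more than 4. LOC115702437, LOC115706657, LOC115706699 and LOC115707100 were on in both Madison libraries, off in both Merick libraries and the Knox female, and between the thresholds in the Knox male. LOC115702437 was the highest of them, at 1.12, 5.92 and 0 CPM in the Knox, Madison and Merick males and 0.0371, 24.0 and 0 CPM in females. LOC115697108, LOC115708036 and LOC115724563 were on in the Madison male and the Knox female alone. In LOC115724563, protein coding on chromosome 6, these stood at 3.73 and 44.9 CPM, the Knox male at 1.31 CPM and the other 3 libraries at 2 counts or fewer.

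In a few places genes next to each other on a chromosome were highest in the same library, though not all of them reached 3 CPM. These places were singled out after the values had been seen. LOC115720997 and LOC115721310, both protein coding on chromosome 2, have 1 counted gene between them. LOC115720997 was at 0.0248, 0.0731 and 23.3 CPM in the Knox, Madison and Merick males, against 4.68, 0.143 and 0 CPM in females. LOC115721310 was at 0.0744, 0.0487 and 12.3 CPM in males and 4.08, 0.114 and 0 CPM in females. Both were high in the Merick male, lower in the Knox female and near 0 elsewhere. Most of the genes around them were highest in the same libraries. Of the 15 counted genes from LOC115720517 to LOC115718573, 13 were highest in the Merick male, and in 11 of these the Knox female came next. Over all 24265 genes with a count, 16.6% were highest in the Merick male and 2.91% had the Knox female next. Summed over the 11 genes, counts were 10, 13 and 3757 in the Knox, Madison and Merick males and 448, 35 and 6 in the females. In the rest of the 11 genes the Knox female stayed under 3 CPM. LOC115721306, for example, had 7.91 CPM in the Merick male and 0.705 CPM in the Knox female, and 0 counts in the other 4 libraries. The place of the Knox female rested on 1 count in LOC115718727. In LOC115718634 it rested on 3 counts, and the Madison male held 3 counts as well. Within the stretch LOC115718725 was on everywhere, at 64.8 to 82.5 CPM in males and 47.1 to 66.0 CPM in females. What the genes of the stretch encode is not stated in the gene table, and neighbours of similar sequence could share reads.

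**Figure D5:**
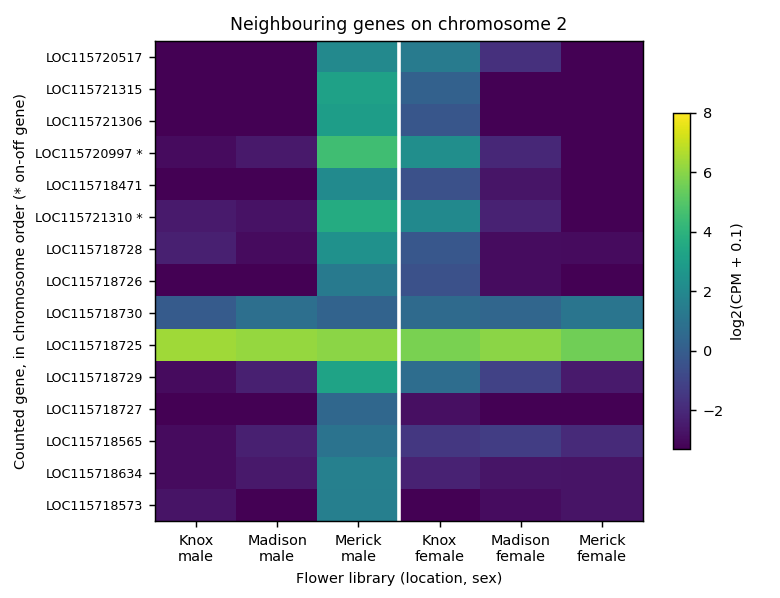
Levels of 15 neighbouring counted genes on chromosome 2, in their order in the Pink pepper assembly, as log2(CPM + 0.1) in each library, males left of the white line and females right of it. The Merick male holds the highest level in 13 of them and the Knox female the next in 11, while LOC115718725 is on in all 6 libraries.

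On chromosome 9, LOC115723301 and LOC115723393 were neighbours with no listed gene between their starts. LOC115723393 was at 0, 0.658 and 25.2 CPM in the Knox, Madison and Merick males, against 0.186, 5.14 and 0 CPM in females. Both genes were highest in the Merick male and at 0 counts in the Merick female, and they had the same state in the 4 libraries where both were scored. They differed in the Knox female, where LOC115723301 was at 37.6 CPM and LOC115723393 at 0.186 CPM. The listed span of LOC115723393 holds or overlaps 3 other counted genes, so its counts are uncertain to that extent. On chromosome 3, LOC115708812 was at 0, 0.0244 and 18.4 CPM in males and 0.0371, 9.85 and 0 CPM in females. The counted gene before it, LOC115708777, followed at a lower level, with 2.91 CPM in the Merick male, 0.628 CPM in the Madison female and 2 counts or fewer elsewhere.

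Most on-off genes had no such neighbour. The 41 genes placed in the table had 82 nearest counted neighbours, of which 24 (29.3%) were on in all 6 libraries, 26 (31.7%) were on in none and 15 (18.3%) were on in at least 1 library and off in at least 1. Over all 23575 counted genes in the table these shares were 49.8%, 30.8% and 5.13%. A neighbour had the same state wherever at least 4 libraries were scored for both genes in 7 of the 82 cases, all in the 3 stretches above. Genes in a stretch are counted once for each member beside them.

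Long non-coding RNAs and genes without an entry in the gene table were frequent. The table held 41 of the 63 genes (65.1%), against 78.7% of all 29283 genes with LOC symbols and 94.6% of the 14981 other genes that reached 3 CPM in at least 1 library of each sex. Of the 41, 26 were protein coding and 15 (36.6%) were long non-coding RNAs, against 3.58% of all counted LOC genes in the table and 1.10% of those other expressed genes. The share was 15.5% among the 219 placed genes that were on and off within males only and 19.9% among the 171 within females only. These shares describe lists chosen on levels, and whether they differ was not tested. By gene type, male and female of 1 location had the same state in 22 of 61 scored comparisons of protein-coding genes (36.1%), 19 of 33 of long non-coding RNAs (57.6%) and 26 of 53 of genes outside the table (49.1%). Over the 6 possible matches of males with females, the share ranged over 36.1 to 62.1% for protein-coding genes, 43.8 to 59.4% for long non-coding RNAs and 48.1 to 54.5% for genes outside the table. The differences between types were not tested.

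None of the 41 placed genes lay on X or on chromosome 8 in the Pink pepper assembly. Chromosome X holds 12.2% and chromosome 8 holds 9.87% of the counted genes in the table. Genes on and off within 1 sex only did lie there, with 24 of 219 on X for males and 26 of 171 for females. On chromosome 8 these numbers were 17 of 219 for males and 15 of 171 for females. Chromosomes 6 and 9 held 7 on-off genes each (17.1% of the 41), against 9.21% and 8.65% of counted genes. Chromosome 1 held 6 (14.6%), against 14.5%.

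On-off genes within males numbered 373 and within females 312, so the 63 shared genes were 16.9% and 20.2% of these lists and 0.419% of the 15046 genes that reached 3 CPM in at least 1 library of each sex. Over all 29777 genes, 1.25% were on-off within males and 1.05% within females. The background of 29777 genes includes genes with few or no counts, and the overlap was not tested. Among the 373, the Merick male was the only on library for 151, and among the 312, the Merick female was the only off library for 131.

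Between male and female flowers, edgeR's quasi-likelihood test called 0 of the 50 members that passed its filter on low counts, against 17.3% of all 19276 tested genes (adjusted p under 0.05). DESeq2 also called 0 of the 44 members to which it gave an adjusted p, against 32.1% of all genes. Nothing can be read from these counts, because the rule requires the sexes to overlap. The members' smallest adjusted p by edgeR was 0.21, for LOC115695905 (log2 fold change male minus female -5.28). The median log2 fold change was -0.13 over the 50 members and 0.00025 over all tested genes.

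A test for location with sex as a covariate called 0% of all genes and 0 of the 50 members by edgeR (smallest adjusted p 0.71). At an unadjusted p under 0.05 there were 12 members (24%), against 6.93% of all genes. DESeq2's likelihood-ratio test called 15 of 63 members (23.8%), against 3.45% of all genes. The rule selects genes with a large spread within each sex, which enters both tests, so these shares are a description. LOC115708671 and LOC115718714 had the smallest DESeq2 adjusted p (1.8e-14 each), while edgeR gave them unadjusted p of 0.0017 and 0.0037 and an adjusted p of 0.71. Of the 15, 12 had no location with opposite states, against 18 of all 63 members. The other 3, LOC115698613, LOC115716136 and LOC115722011, had 1 such location. The test asks for a location shift shared by both sexes, which favours genes without opposite states, so this too is a description. With 1 male and 1 female per location, 2 residual degrees of freedom remained.

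The rule's thresholds had no gap beside them. Just inside the on threshold, LOC115716432 reached 3.11 CPM in its highest male (7.23 in its highest female), and LOC115715768 reached 3.15 CPM in its highest male and 3.49 CPM in its highest female. Just outside, LOC115723999 reached 4.26 CPM in its highest male and 2.9995 CPM in its highest female, and LOC115709455 reached 6.88 and 2.97 CPM. At the off threshold, LOC115704641 in the Knox male (0.0992 CPM, 4 counts) and LOC115721989 in the Madison female (0.0857 CPM, 3 counts) were inside. LOC115701161 and LOC115703074 were outside, each with 4 counts in the Merick female (0.103 CPM).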

How the data were processed

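Each library came as a table of raw read counts that the authors deposited, with 29777 gene rows and 5 further rows of unassigned reads, named as htseq-count names them. Aligner, build, annotation and strand setting: not given in the sources used here. These further rows (14.9% to 18.1% of listed reads, of which 5.14% to 5.74% aligned to no unique place) stayed out of CPM and tests. Genes with near-identical copies are therefore uncertain. CPM are counts divided by the library's gene total. The rule, thresholds and gene lists were chosen with earlier results of these data known. A gene was on at 3 CPM or more and off at 0.1 CPM or less, and a location was scored when both libraries were on or off. Tests used edgeR 4.0.16 in R 4.3.3 with TMM scaling, filterByExpr and robust quasi-likelihood fits, adjusted over all genes by the Benjamini-Hochberg method, and DESeq2 1.42.0. Code was tested on simulated data. Nothing says that libraries are separate plants, so p-values cover only the spread among these 6.

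The naming rule took the 10 with the highest level reached in both sexes, those with the same state at all 3 locations, and those next to the thresholds; 1 pair of members was directly adjacent. Other genes given with values were picked after their values had been seen, as examples of a pattern. Planned comparisons of protein sequences and motifs were not run, since no sequences were used here. The gene table's assembly may not be that of the counts, so no positions are given. Intervals and floors cover counting error only.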

Additional observations from a re-analysis of the deposited data

Results flagged for a closer look

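The difference between the male and the female library changed sign between locations in 31 of the 63 on-off genes: the male was on and the female off at 1 location, and the reverse held at another. Each location has 1 male and 1 female library, so the change of sign was not tested. The rule asks for both states in each sex, which bears on this number, and how far it does was not tested either. In 10 genes the male alone was on at 1 or more locations and never the female alone, and in 4 genes the reverse held.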

How the results depend on the processing

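The number of on-off genes followed the thresholds: 183 with on at 1 CPM, 10 with on at 10 CPM, 37 with off at 0 counts, 94 with off at 0.3 CPM, and 63 with TMM-scaled sizes (62 shared) or equal depth (57 shared). With 1 library left out it was 23 (Merick male) to 39 (Knox male), 37 for the Madison male and 32, 37 and 36 for the Knox, Madison and Merick females; leaving out a library can only lower it. Genes with the same state at all locations numbered 15, 0, 1 and 6 under those 4 thresholds, 2 with TMM-scaled sizes and 5 at equal depth. They numbered 3 to 9 with 1 library left out, where 2 locations remain. The share of same states by location was 45.5% to 50.7% where its direction held and turned to 51.3% (off at 0 counts) and 52.7% (off at 0.3 CPM). At equal depth it stood at 50.7%, against a mean of 51.4% over the matches. Without 1 library it was 35.9% to 46.9%, each time below the other match. Genes called between the sexes numbered 3339, 2123 with location as a replicate block, 6619 with DESeq2 and 131 to 8311 with 1 library left out (8311 for the Merick male, 943 and 216 for the Knox and Madison males, 131 to 242 for a female). No member was called in any of them. By location, DESeq2 called 676 genes and 15 members, where edgeR called 0. The cause was not tested. Counts of 0 to 4 limit what off can mean, and the shallowest library, the Knox female, sets the coarsest limit. The main test between the sexes did not use location as a pairing, since the labels give no shared replicate number. Each library was also taken relative to the mean of its sex. Male and female of 1 location then correlated over genes at 0.12 in Knox, -0.00078 in Madison and 0.17 in Merick. Libraries of different locations correlated at -0.22 to 0.14. Taking values relative to a mean of 3 libraries ties these correlations together, so they do not decide whether location pairs the libraries.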
